A study of Mus musculus with 6 samples.

Results

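The genes described here encode the contractile unit of striated muscle and the membrane system that couples its excitation to contraction. They form a named list of 49 genes, matched by symbol, and all 49 were found among the 18002 genes of the deposited tables. The list was proposed with the fold changes of these same libraries known, so every spheroid against monolayer value of a listed gene is a description and carries no test. RNA was taken after 48 h of culture from primary periosteum-derived cells of mouse jawbone, periosteum being the sheet of cells on a bone's surface. In 3 libraries the cells had been kept as spheroids, rounded aggregates, and in 3 libraries as a monolayer on a flat surface. The labels give no strain, age, sex, genotype or treatment, and do not state if each library had its own culture or animal. P-values therefore measure only how far these samples spread, and that spread may be technical.

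In striated muscle, myosin heavy chains and their light chains form the thick filament and pull on actin thin filaments. Troponin on the thin filament binds calcium and switches the pull on, while titin, nebulin, alpha-actinin and the M-band proteins hold the lattice in place. Calcium leaves the sarcoplasmic reticulum through the ryanodine receptor when the surface membrane is excited, and a calcium pump returns it. Many of these proteins exist as fast-twitch, slow-twitch or cardiac, and developmental isoforms made from separate genes, and developing fibres use embryonic and neonatal isoforms before adult ones. Periosteum is not a muscle, although jaw muscles attach to it.

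Total counts ranged from 21701046 to 21889110 per library. The 49 genes took 0.494%, 0.524% and 0.502% of all reads in spheroid libraries 1, 2 and 3, against 0.0331%, 0.0345% and 0.0334% in the monolayer libraries. Their summed FPKM, a level scaled to gene length and library size, was 3033, 3205 and 3013 in spheroids and 173.8, 185.8 and 171.1 in monolayers. The groups did not overlap on any of these scales. In bulk RNA, a different number of cells that express these genes and a different amount of their RNA per cell cannot be told apart. The type of cell that holds this RNA was not tested. Markers of the labelled cell type were abundant in both formats: the 12 periosteal and skeletal markers summed to 10180 to 10580 FPKM in spheroids and 12230 to 12420 FPKM in monolayers.

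After a filter on low counts 48 of the 49 genes were tested, and 47 of them were called higher and 1 lower in spheroids, with 0 not called (edgeR's quasi-likelihood test, Benjamini-Hochberg adjusted threshold 0.05). Of all 13708 tested genes, 74.2% were called, 37.1% higher and 37.1% lower. The list was chosen on this contrast, so nothing is read from these counts. The 3 spheroid values lay above all 3 monolayer values, in CPM, counts scaled to library size, for 47 genes and below them for 1 gene, and the groups overlapped for 1, beside 38.0% and 37.8% of tested genes that did not overlap in these directions. The median log2 fold change of the 48 was 4.22, with quartiles of 4.03 and 4.52, against a median of 0.00 and quartiles of -0.31 and 0.40 over all tested genes. Between 16-fold and 32-fold higher lay 34 of the 48 genes, 2 lay above 32-fold, and 11 were higher by less than 16-fold. A log2 fold change of at least 4, or 16-fold, was reached by 1.63% of tested genes. Of the 48 genes, 5 had under 10 reads in every monolayer library: Mybpc2, Myoz1, Ckm, Trim63 and Trdn. These genes passed the filter only through their spheroid counts. So did Myh2, Myl2, Myoz2 and Fbxo40, which each reached 10 reads in only 1 monolayer library.

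**Figure D1:**
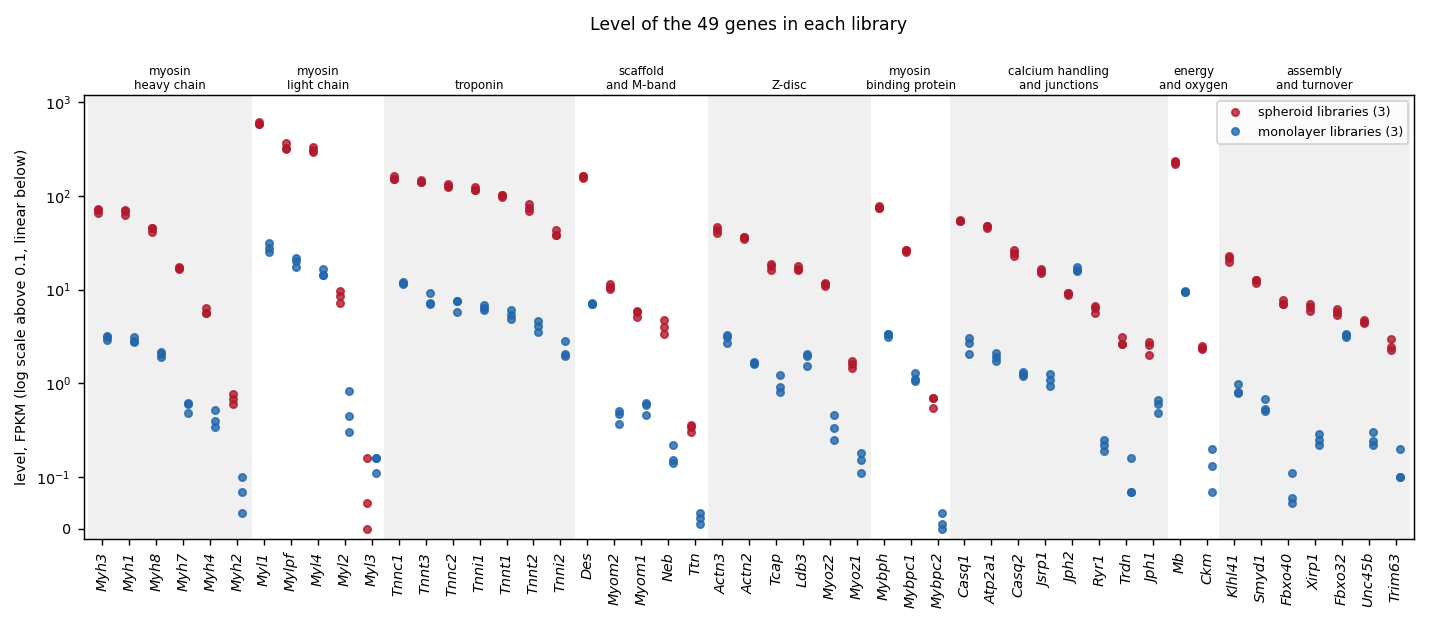
Level in FPKM of each of the 49 genes in 3 spheroid libraries (red, left) and 3 monolayer libraries (blue, right), grouped by role and ordered by mean spheroid level. Spheroid points lie above monolayer points for all genes but Jph2, which is lower in spheroids at 8.85 to 9.14 FPKM, and Myl3, which is at or under 0.16 FPKM in all 6 libraries.

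Promoters were searched for letters that muscle factors are known to bind. RefSeq promoters (GRCm38.p6) were matched for 37 of the 49 genes, giving 46 start sites, and the 250 bases before each start were searched on both strands. The E-box CANNTG, the core recognised by basic helix-loop-helix factors such as MyoD and myogenin, stood in 39 of 46 windows, or 84.8%, against 66.2% of all 32851 promoters. Its form CAGCTG, which is one of the CANNTG letters and so overlaps that count, stood in 22 of 46, or 47.8%, against 13.0%. The MEF2 site, bound by myocyte enhancer factors, stood in 8 of 46, or 17.4%, against 2.92%. These shares are descriptions, and a match is not a shown binding site. The following 5 windows were picked to show the range of matches, from Klhl41 with 4 E-boxes and 1 MEF2 match, through Casq2, Myh8 and Des, to Smyd1 with neither. Capitals mark E-boxes and MEF2 matches, and the positions are chr2:69669870-69670119 (plus strand) for Klhl41, chr3:102086165-102086414 (plus) for Casq2, chr11:67276874-67277123 (plus) for Myh8, chr1:75360042-75360291 (plus) for Des and chr6:71262282-71262531 (minus) for Smyd1.
Klhl41 promoter: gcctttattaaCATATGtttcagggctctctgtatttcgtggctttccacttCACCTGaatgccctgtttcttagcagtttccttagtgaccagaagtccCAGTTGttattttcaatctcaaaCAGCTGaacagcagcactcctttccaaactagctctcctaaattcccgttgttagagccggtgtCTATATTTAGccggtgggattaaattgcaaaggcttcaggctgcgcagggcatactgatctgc
Casq2 promoter: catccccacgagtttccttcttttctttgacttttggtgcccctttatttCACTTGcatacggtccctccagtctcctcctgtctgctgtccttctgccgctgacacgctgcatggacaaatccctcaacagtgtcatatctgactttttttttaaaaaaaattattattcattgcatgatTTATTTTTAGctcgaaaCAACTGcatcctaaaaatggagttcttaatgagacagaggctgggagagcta
Myh8 promoter: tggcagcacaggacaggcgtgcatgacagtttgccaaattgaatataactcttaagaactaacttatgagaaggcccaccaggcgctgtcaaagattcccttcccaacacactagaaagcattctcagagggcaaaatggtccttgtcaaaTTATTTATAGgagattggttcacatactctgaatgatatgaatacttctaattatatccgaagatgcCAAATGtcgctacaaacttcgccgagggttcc
Des promoter: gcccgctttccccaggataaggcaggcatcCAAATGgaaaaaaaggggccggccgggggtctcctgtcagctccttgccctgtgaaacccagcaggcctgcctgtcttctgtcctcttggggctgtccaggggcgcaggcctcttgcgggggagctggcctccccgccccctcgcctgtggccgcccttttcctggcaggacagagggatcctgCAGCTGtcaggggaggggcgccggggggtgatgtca
Smyd1 promoter: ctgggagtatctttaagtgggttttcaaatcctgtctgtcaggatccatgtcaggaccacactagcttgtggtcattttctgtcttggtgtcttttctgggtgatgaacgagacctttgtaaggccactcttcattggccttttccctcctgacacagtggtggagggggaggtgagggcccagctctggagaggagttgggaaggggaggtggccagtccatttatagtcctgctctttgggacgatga
Smyd1, with no match, had a log2 fold change of 4.39 ± 0.09 (SE), Klhl41 had 4.60 ± 0.09, and both Jph2 windows held a CAGCTG although Jph2 was lower in spheroids.

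Myosin heavy chains, the motor subunits, were higher in spheroids for all 6 listed genes. Myh3, the embryonic heavy chain, had 65.4, 72.8 and 70.5 FPKM in spheroids, against 2.89, 3.12 and 3.18 FPKM in monolayers. Its log2 fold change was 4.47 ± 0.05 (SE). Myh1, an adult fast heavy chain, stood at nearly the same level, with 63.1, 69.5 and 71.5 FPKM in spheroids and 2.77, 2.81 and 3.13 FPKM in monolayers. Myh8, the neonatal heavy chain, had 41.1, 45.7 and 45.2 FPKM in spheroids and 1.89, 2.05 and 2.17 FPKM in monolayers. In each of these genes spheroid library 1 was the lowest of the 3 spheroid libraries, and no spheroid value came near a monolayer value. Myh7, the slow and cardiac heavy chain, had 16.4, 17.2 and 17.3 FPKM in spheroids and 0.48, 0.61 and 0.60 FPKM in monolayers, with the largest log2 fold change of the family at 4.88 ± 0.07. The adult fast genes Myh4 and Myh2 were lower in level, at 5.87 ± 0.48 and 0.68 ± 0.08 FPKM in spheroids, against 0.42 ± 0.09 and 0.067 ± 0.035 FPKM in monolayers (SD, n = 3). Their log2 fold changes of 3.78 ± 0.10 and 3.32 ± 0.25 were the smallest of the family. Heavy chain genes are near-identical over long stretches, reads can be shared among them, and single values, above all that of Myh2, are uncertain.

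The 5 heavy chain genes Myh3, Myh2, Myh1, Myh4 and Myh8 lie side by side on chromosome 11, from 67078273 to 67308634, a span of 230.4 kb, in GRCm38.p6. Myh2 and Myh1 are 2.58 kb apart. Their spheroid levels differed from 0.68 to 69.6 FPKM within that span. The troponin genes Tnni1 and Tnnt2 are 25.3 kb apart on chromosome 1, and Tnni2 and Tnnt3 are 54.4 kb apart on chromosome 7. The remaining genes are scattered, and the 49 lie on 17 chromosomes.

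Myosin light chains, which brace the neck of the myosin head, held the highest levels of the list. Myl1, the fast essential light chain, had 592, 613 and 585 FPKM in spheroids and 27.7, 31.1 and 25.3 FPKM in monolayers, a log2 fold change of 4.36 ± 0.05. Mylpf, the fast regulatory light chain, had 328, 365 and 320.1 FPKM in spheroids and 20.0, 21.6 and 17.3 FPKM in monolayers. Myl4, the embryonic and atrial light chain, had 308, 337 and 293 FPKM in spheroids and 14.4, 16.4 and 14.2 FPKM in monolayers. Spheroid library 2 was the highest in each of the 3 genes. Myl2, the slow and ventricular regulatory chain, stood far lower, at 8.46 ± 1.23 FPKM in spheroids and 0.52 ± 0.27 FPKM in monolayers (SD, n = 3). Myl3, the slow and ventricular essential chain, was the only listed gene that missed the filter, with 3, 0 and 1 reads in spheroids and 3, 2 and 3 reads in monolayers. The spheroid to monolayer ratio of its reads was 0.50, with an exact 95% counting interval from 0.111 to 1.88, so a difference was not detectable at this depth.

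Troponin genes had closely similar fold changes. Tnnc1, the slow and cardiac calcium-binding subunit, had 152, 165 and 151 FPKM in spheroids and 11.4, 11.7 and 12.1 FPKM in monolayers. Its log2 fold change of 3.69 ± 0.06 was the smallest of the 7. Tnnt3, the fast tropomyosin-binding subunit, had 142, 147 and 142 FPKM in spheroids and 7.01, 9.09 and 7.15 FPKM in monolayers. Tnnc2, the fast calcium-binding subunit, had 135, 129 and 125 FPKM in spheroids and 7.53, 5.82 and 7.46 FPKM in monolayers. The other 6 troponin genes lay between 4.08 and 4.19 on the log2 scale, a range about as wide as the SE of Tnni2, 0.109. Tnni2, the fast inhibitory subunit, had the lowest level, at 39.7 ± 2.70 FPKM in spheroids and 2.28 ± 0.49 FPKM in monolayers (SD, n = 3). Tnnc2 overlaps the cell cycle gene Ube2c by 144 exon bases on the opposite strand, and Ube2c averaged 18.3 CPM in spheroids and 53.3 CPM in monolayers. Since the use of strand in counting is not given, reads of the 2 genes cannot be told apart there.

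Scaffold and M-band genes were higher in spheroids as well. Des, which encodes the muscle intermediate filament desmin, had 155, 161 and 163 FPKM in spheroids and 7.10, 6.94 and 7.08 FPKM in monolayers. Des also serves mural and smooth muscle cells. Myom2 and Myom1, which crosslink myosin at the M-band, differed in fold change, with 4.56 ± 0.09 for Myom2 and 3.24 ± 0.09 for Myom1. Myom2 averaged 10.7 ± 0.66 FPKM in spheroids and 0.45 ± 0.07 FPKM in monolayers, and Myom1 averaged 5.58 ± 0.40 FPKM in spheroids and 0.55 ± 0.08 FPKM in monolayers (SD, n = 3). Ttn, the titin gene and the longest of the list, stood lowest at 0.36, 0.34 and 0.30 FPKM in spheroids and 0.03, 0.01 and 0.02 FPKM in monolayers. Neb, the nebulin gene that runs along the thin filament, had 4.69, 4.01 and 3.34 FPKM in spheroids and 0.14, 0.22 and 0.15 FPKM in monolayers. The length implied by counts and FPKM was 85505 bases for Ttn and 22768 bases for Neb, so the 1860 spheroid reads of Ttn and the 5956 of Neb give unlike levels per length. Ttn, Neb and Ryr1, the 3 genes with an implied length of at least 10 kb and 10 CPM, were highest in spheroid library 1, with a median ratio to the spheroid mean of 1.07, 1.03 and 0.893 in libraries 1, 2 and 3. The 173 other tested genes of that length and level had ratios of 1.05, 1.01 and 0.951, and the part of this length dependence in the spread of the 3 genes was not tested.

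At the Z-disc, where thin filaments of neighbouring sarcomeres are anchored, all 6 genes were higher in spheroids. Actn3, the fast alpha-actinin, had 40.3, 46.4 and 43.2 FPKM in spheroids and 2.69, 3.25 and 3.13 FPKM in monolayers. Actn2, the alpha-actinin of all sarcomeres, had 34.35, 36.02 and 36.01 FPKM in spheroids and 1.60, 1.65 and 1.68 FPKM in monolayers. The log2 fold change was 4.40 ± 0.06 for Actn2 and 3.81 ± 0.07 for Actn3. Tcap, which caps titin, averaged 17.6 ± 1.14 FPKM in spheroids and 0.98 ± 0.21 FPKM in monolayers. Ldb3, a PDZ and LIM protein of the Z-disc, had the smallest difference in this role, at 16.9 ± 0.86 FPKM in spheroids and 1.85 ± 0.29 FPKM in monolayers (log2 fold change 2.69 ± 0.07). Myoz2, the slow and cardiac calsarcin, had the largest, at 4.99 ± 0.17, from 822 spheroid and 25 monolayer reads. Myoz1, the fast calsarcin, had 129 spheroid and 12 monolayer reads and the lowest level of the role, 1.59 ± 0.15 FPKM in spheroids and 0.15 ± 0.04 FPKM in monolayers (SD, n = 3).

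Among myosin binding proteins Mybph stood highest, with 74.4, 78.5 and 74.4 FPKM in spheroids and 3.35, 3.36 and 3.13 FPKM in monolayers. Mybpc1, the slow form of the thick filament protein, averaged 25.9 ± 0.77 FPKM in spheroids and 1.14 ± 0.11 FPKM in monolayers (SD, n = 3). Mybpc2, the fast form, had 42, 53 and 55 reads in spheroids and 1, 0 and 2 reads in monolayers. The ratio of its reads was 50.3, with an exact 95% counting interval from 16.9 to 247. The slow form was thus the more abundant per length in spheroids, at 25.9 FPKM, against 0.64 FPKM for the fast form.

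Calcium handling and junction genes split into a large set that was higher in spheroids and the junctophilins, which did not move together. Casq1, the fast calcium buffer of the sarcoplasmic reticulum, had 53.9, 54.8 and 54.0 FPKM in spheroids and 2.03, 3.05 and 2.71 FPKM in monolayers. Atp2a1, the fast calcium pump, had 45.0, 47.2 and 47.6 FPKM in spheroids and 1.72, 2.08 and 1.92 FPKM in monolayers. Casq2, the slow and cardiac calcium buffer, had 22.7, 26.4 and 24.3 FPKM in spheroids and 1.26, 1.18 and 1.31 FPKM in monolayers. All spheroid values of these genes lay above the monolayer values. Ryr1, the calcium release channel, reached 4.77 ± 0.09 on the log2 scale, and Trdn, which ties calsequestrin to that channel, 4.91 ± 0.18. Jsrp1, a junctional reticulum protein gene, stood at 3.82 ± 0.12. Jph1, the skeletal junctophilin that bridges the surface membrane and the reticulum, had 2.01, 2.75 and 2.54 FPKM in spheroids and 0.48, 0.60 and 0.66 FPKM in monolayers, a log2 fold change of 1.95 ± 0.13. Jph2, the junctophilin shared by cardiac, skeletal and smooth muscle, was the 1 listed gene lower in spheroids, with 9.14, 8.85 and 9.09 FPKM in spheroids and 17.4, 15.6 and 16.3 FPKM in monolayers. Its log2 fold change was -0.89 ± 0.04, and its monolayer level was the highest of the 8 genes in this role.

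Of the pair of energy and oxygen genes, Mb, which encodes the oxygen store myoglobin, had 234, 229 and 218 FPKM in spheroids and 9.46, 9.45 and 9.60 FPKM in monolayers. Ckm, the muscle creatine kinase gene and a marker of mature fibres, had 2.33, 2.36 and 2.49 FPKM in spheroids and 0.13, 0.07 and 0.20 FPKM in monolayers. Mb was thus high and Ckm low in the same libraries and their log2 fold changes were 4.55 ± 0.05 and 4.08 ± 0.29. The fold change of Ckm rests on 213 spheroid and 12 monolayer reads.

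Assembly and turnover genes held both the largest log2 fold change of the list and one of the smallest. Fbxo40, a muscle ubiquitin ligase subunit, had 7.01, 7.81 and 6.94 FPKM in spheroids and 0.06, 0.11 and 0.05 FPKM in monolayers, from 25 monolayer reads in all. The ratio of its reads was 95.8, with an exact 95% counting interval from 64.7 to 148. Fbxo32, a ubiquitin ligase subunit raised in wasting muscle and also expressed outside muscle, had 5.41, 6.16 and 5.72 FPKM in spheroids and 3.31, 3.34 and 3.13 FPKM in monolayers, a log2 fold change of 0.79 ± 0.06. Trim63, the other classical ligase gene of wasting muscle, had 2.56 ± 0.35 FPKM in spheroids and 0.13 ± 0.06 FPKM in monolayers (SD, n = 3). These 3 ligase genes thus spanned 0.79 to 6.53 on the log2 scale. Klhl41, which stabilises nebulin, averaged 21.4 ± 1.35 FPKM in spheroids and 0.86 ± 0.12 FPKM in monolayers, and Smyd1, a myosin chaperone partner, averaged 12.3 ± 0.46 FPKM in spheroids and 0.57 ± 0.10 FPKM in monolayers. Unc45b, the myosin chaperone, and Xirp1, which binds actin at repair sites, stood at 4.13 ± 0.13 and 4.66 ± 0.10 on the log2 scale.

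**Figure D2:**
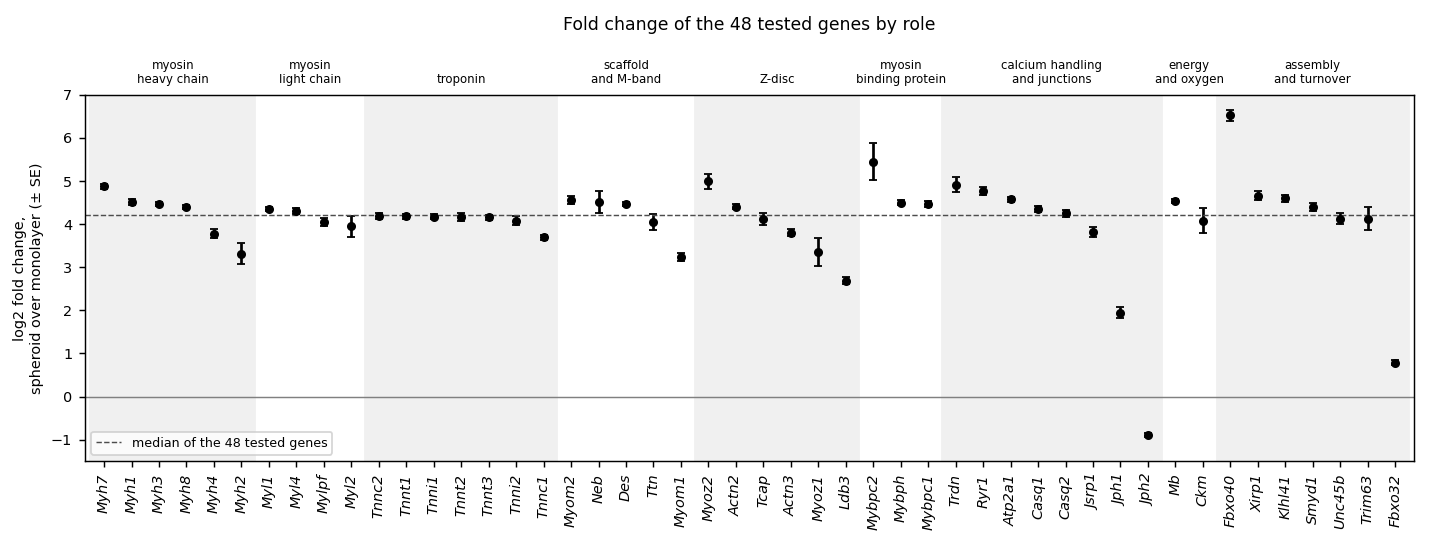
Log2 fold change, spheroid over monolayer, of the 48 tested genes with the SE of the edgeR fit, grouped by role, with the list median of 4.22 dashed. Most points lie between 4 and 5, while Fbxo40 stands at 6.53, Fbxo32 at 0.79, Jph1 at 1.95 and Jph2 at -0.89.

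Within 8 families of 22 isoforms, each isoform's percent of the family's summed FPKM was computed per library, and the mean share differed between formats by less than 2 percentage points for 17 isoforms and by 2 points or more for 5. Myh3 made up 33.9% ± 0.567 of heavy chain FPKM in spheroids and 33.9% ± 0.536 in monolayers (SD, n = 3). Myh1 made up 33.2% ± 0.531 in spheroids and 32.1% ± 1.38 in monolayers, and Myh8 21.5% ± 0.140 in spheroids and 22.5% ± 0.244 in monolayers. Among regulatory light chains Mylpf held 97.6% ± 0.244 in spheroids and 97.5% ± 1.09 in monolayers. Tnnt3 held 45.0% ± 0.839 of troponin T in spheroids and 44.8% ± 1.95 in monolayers, and the slow form Tnni1 held 74.9% ± 0.444 of troponin I in spheroids and 73.9% ± 2.85 in monolayers. Embryonic and neonatal heavy chains together thus exceeded the adult fast chains in both formats, while fast forms led in light chains and the slow form led in troponin I.

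The 5 isoforms whose share differed by 2 points or more came from 3 families. Tnnc2 held 47.1%, 43.9% and 45.4% of troponin C in spheroids and 39.7%, 33.2% and 38.1% in monolayers, with Tnnc1 as the complement. Actn3 held 54.0%, 56.3% and 54.6% of alpha-actinin in spheroids and 62.7%, 66.3% and 65.1% in monolayers, with Actn2 as the complement. The values of the formats did not overlap in either family. Myh7 held 8.28% ± 0.230 of heavy chain FPKM in spheroids and 6.21% ± 0.460 in monolayers (SD, n = 3). Among minor heavy chains Myh4 held 2.66% to 3.04% in spheroids and 4.05% to 5.65% in monolayers, without overlap. Myh2 held 0.331% ± 0.0247 in spheroids and 0.726% ± 0.364 in monolayers (SD, n = 3). These shares use the same contrast that chose the list and were not tested.

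**Figure D3:**
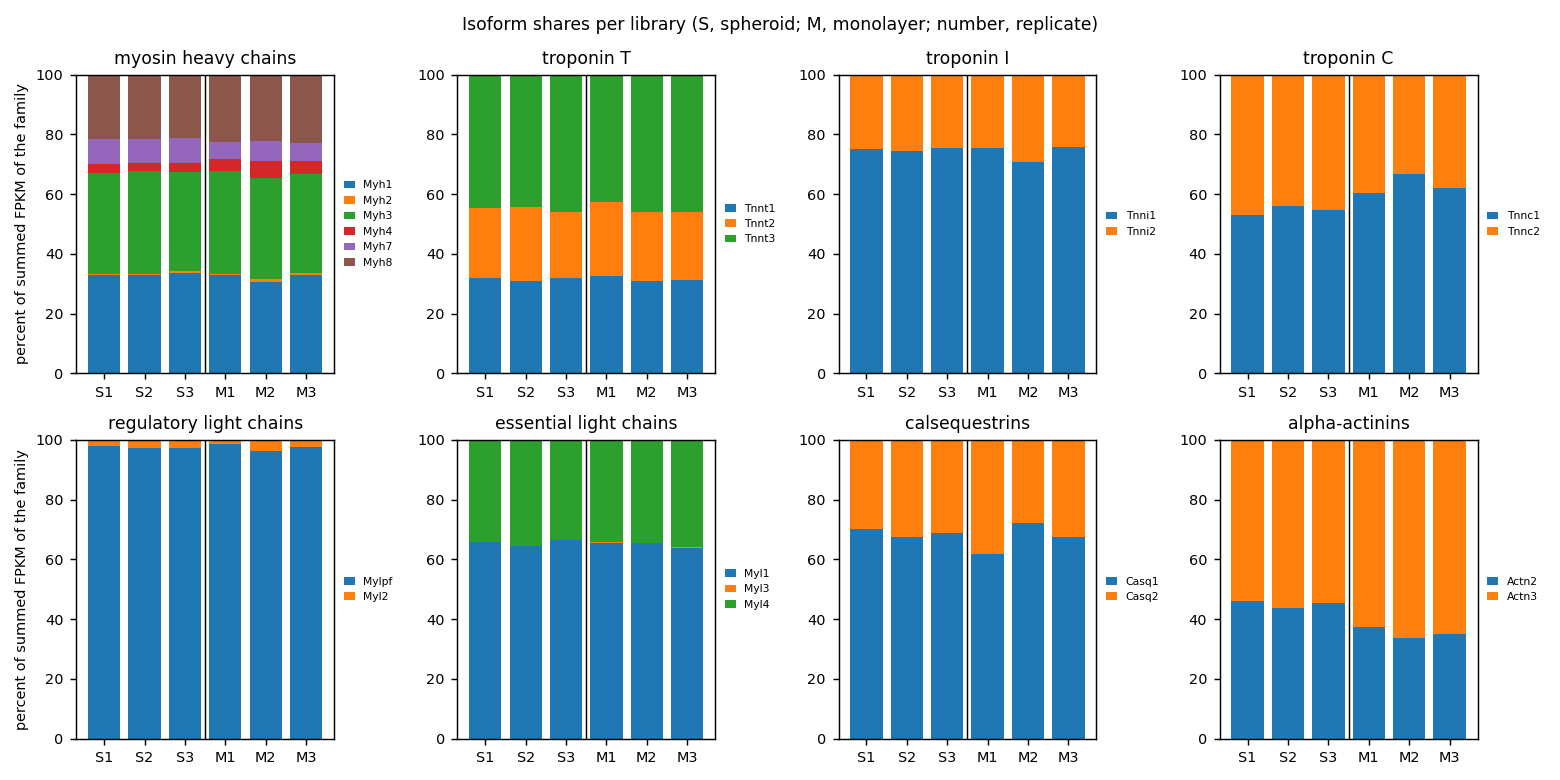
Percent of the summed FPKM of 8 isoform families in each library, with spheroid libraries S1 to S3 left of the line and monolayer libraries M1 to M3 right of it. The largest differences in percentage points across the line are in troponin C, where Tnnc2 is 43.9% to 47.1% in spheroids and 33.2% to 39.7% in monolayers, and alpha-actinins, where Actn3 is 54.0% to 56.3% in spheroids and 62.7% to 66.3% in monolayers.

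Filament, calcium pump and calcium buffer genes and Actn3 were grouped by the fibre type they are known for. Other genes were put in no class, among them Myoz1 and Myoz2, whose log2 fold changes were 3.36 ± 0.32 and 4.99 ± 0.17. The 12 fast genes, 3 developmental genes and 8 tested slow or cardiac genes had median log2 fold changes of 4.18, 4.40 and 4.18. Summed FPKM of the fast genes was 1444, 1521 and 1434 in spheroids and 73.8, 82.3 and 70.6 in monolayers. That of the developmental genes was 415, 455 and 409 in spheroids and 19.2, 21.6 and 19.5 in monolayers. The 9 slow or cardiac genes, with Myl3 included, summed to 513, 553 and 510.1 FPKM in spheroids and 30.2, 33.2 and 30.5 FPKM in monolayers. The ranges of fold changes in the 3 classes overlapped, from 3.32 to 5.45 for fast, 4.30 to 4.47 for developmental and 3.69 to 4.88 for slow or cardiac genes. The classes are known mainly from adult mouse muscle, and some slow or cardiac genes, such as Tnnt2 and Casq2, are also used by developing fibres. Myl4 held most of the developmental sum, at 308, 337 and 293 FPKM in spheroids and 14.4, 16.4 and 14.2 FPKM in monolayers.

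Spread between spheroid libraries was larger for these genes than for most. Over the 41 listed genes with at least 10 CPM in spheroids, the median coefficient of variation was 6.02%, against 3.30% over the 9522 tested genes of that level. Spheroid library 2 held the highest value for 24 of the 41 genes, library 1 for 8 and library 3 for 9. Over the 9522 genes these shares were 34.8%, 29.1% and 36.1% for libraries 2, 1 and 3. The differences among the spheroid libraries remained small beside the distance between formats.

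Genes of the same systems outside the list, from lists written with earlier results of these data known, were tested in the same fit. Here and in the lists below, genes with under 10 reads in any monolayer library needed their spheroid counts to pass the filter. The counts of rises include such genes, and nothing is read from their calls. Of 38 other tested sarcomere genes, 31 rose, 5 fell and 2, Cfl2 and Tnni3, did not pass, with a median log2 fold change of 3.85, or 1.96 with limma on log2(FPKM + 1) (against 37.1% of all tested genes in each direction). Trim54, a ubiquitin ligase of the sarcomere, rose by 5.26 ± 0.15 (SE), with 11.4 FPKM in spheroids and 0.29 FPKM in monolayers. It had 28 monolayer reads in all and needed its spheroid counts to pass the filter. Klhl31, a muscle kelch protein gene, rose by 4.90 ± 0.31 from 9 monolayer reads. The skeletal and cardiac actin genes Acta1 and Actc1 rose by 3.89 ± 0.04 and 3.96 ± 0.06, though reads can be shared among actin paralogs. Tpm1, a tropomyosin gene also used outside muscle, had 348 FPKM in spheroids and 1019 FPKM in monolayers (log2 fold change -1.72 ± 0.03, edgeR adjusted p = 5.04e-32), and the filament gene Nexn stood at -0.78 ± 0.05. The other genes that fell were Tpm2, Tpm3 and Flnc. Bag3 and Cryab, chaperone genes that many cell types express, rose by 0.53 ± 0.03 and 0.19 ± 0.04. The summed FPKM of this list was 1856 to 1914 in spheroids and 1899 to 1929 in monolayers, and Tpm1 alone held 348 FPKM of it in spheroids and 1019 FPKM in monolayers.

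Of 23 other tested excitation-contraction genes, 22 rose and 1 fell, against 37.1% of all tested genes in each direction. The median of the 23 was 3.01, or 1.73 with limma on log2(FPKM + 1). Cacna1s, the voltage sensor of the skeletal surface membrane, rose by 4.36 ± 0.08 (edgeR adjusted p = 3.96e-30), with 8.58 FPKM in spheroids and 0.41 FPKM in monolayers. Cacng6, a gene of the calcium channel gamma subunit family, rose by 5.29 ± 0.17. Kcnj11, a subunit gene of ATP-sensitive potassium channels, had 100 spheroid and 2 monolayer reads, a ratio of 50.3 with an exact 95% counting interval from 13.6 to 421. Atp2a2, the slow-muscle and housekeeping calcium pump, rose by 0.70 ± 0.03, at 137 FPKM in spheroids and 81.7 FPKM in monolayers. Asph, which spans junctional and enzyme isoforms, stood at -0.29 ± 0.03 (adjusted p = 1.69e-09).

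All 17 tested muscle energy genes rose, against 37.1% of all tested genes. Ckmt2, Ppp1r3a, Ampd1, Cox8b and Cox7a1 had only 8, 7, 10, 21 and 26 monolayer reads in all. These genes needed their spheroid counts to pass the filter. The median of the 17 was 2.41, or 1.62 with limma on log2(FPKM + 1). Ckmt2, the sarcomeric mitochondrial creatine kinase gene, rose by 5.29 ± 0.29 from 8 monolayer reads, and Cox8b, a muscle form of a respiratory chain subunit, by 4.58 ± 0.19. Aldoa, a glycolytic enzyme gene of nearly all cells, rose by 0.12 ± 0.03. Of 17 dystrophin complex and sarcolemma genes 14 rose and 3 fell, against 37.1% of all tested genes in each direction. The median of these 17 was 0.65. Popdc3, a membrane protein gene of striated muscle, rose by 4.99 ± 0.21. Utrn, the dystrophin relative found in many tissues, stood at -0.43 ± 0.05, and Sgcd and Dysf stood at -0.20 ± 0.04 and -0.09 ± 0.04. In edgeR's test the adjusted p of Dysf was 0.0478, and the call was lost in 8 of 12 alternative settings, which leaves 2 genes that fell.

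**Figure D4:**
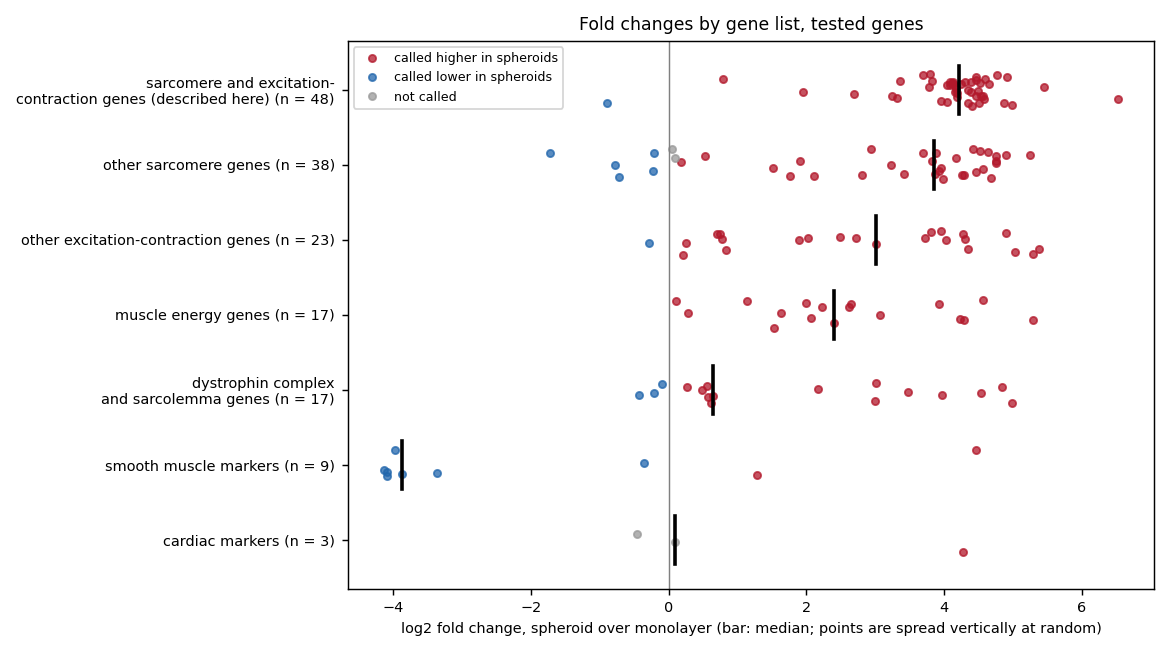
Log2 fold change, spheroid over monolayer, of every tested gene in 7 lists, with each list's median as a bar. Medians run from 4.22 for the genes described here, 3.85 for other sarcomere genes and 3.01 for other excitation-contraction genes down to 0.65 for the dystrophin complex, 0.10 for the 3 tested cardiac genes and -3.87 for smooth muscle markers.

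Myogenic regulators and fusion genes rose in 14 of 15 tested cases, against 37.1% of all tested genes. Myog at 4.38 ± 0.08 and Mymk at 4.18 ± 0.07 led them, and the median of the 15 was 2.27. Pax3 stood at -0.18 ± 0.08 (edgeR adjusted p = 0.0385), and its call was lost in 8 of 12 alternative settings.

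Most cardiac markers had few reads. Of 13 cardiac markers found in the tables only 3 passed the filter, of which Sln, also a skeletal muscle gene, rose by 4.27 ± 0.19 and Tnni3 and Tbx5 did not pass the test. Myh6, the main heavy chain of adult mouse heart, had 10 reads over the 3 spheroid libraries and 0 over the 3 monolayer libraries. With 3 reads set as the monolayer floor the ratio is 3.35, which leaves out the counting error of the 10 reads. Mybpc3 had 1 read in spheroids and 0 in monolayers, and Nkx2-5 had 20 in spheroids and 3 in monolayers. The summed level of the 13 was 19.0 to 23.0 FPKM in spheroids and 2.28 to 3.23 FPKM in monolayers, of which Sln averaged 18.2 FPKM in spheroids and 0.91 FPKM in monolayers and Tnni3 1.17 FPKM in spheroids and 1.12 FPKM in monolayers. Listed genes that heart and slow muscle share, such as Myh7, Tnnc1 and Tnnt2, averaged 16.96, 156 and 74.98 FPKM in spheroids, where Myh6, Mybpc3, Ryr2 and Nkx2-5 averaged 0.21 FPKM or less.

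Smooth muscle markers went the opposite way. Of 9 tested, 7 fell and 2 rose, against 37.1% of all tested genes in each direction, and the median of the 9 was -3.87. The summed level of the markers was 403 to 419 FPKM in spheroids and 3426 to 3513 FPKM in monolayers. Acta2 and Tagln held most of the monolayer sum, at 2295 and 818.8 FPKM, against 138.5 and 57.3 FPKM in spheroids. Des held 160.0 FPKM of the spheroid sum and 7.04 FPKM of the monolayer sum. Myh11 averaged 0.24 FPKM in spheroids and 2.40 FPKM in monolayers, and Myocd had 2 reads in spheroids and 10 in monolayers. Cnn1, the calponin gene, and Actg2, the enteric smooth muscle actin gene, stood at -4.13 ± 0.06 and -4.09 ± 0.04. The genes that rose were Synpo2, by 1.29 ± 0.08, and Des, which also belongs to the list described here. The part of the smooth muscle genes in the value of Jph2, which smooth muscle also uses, was not tested.

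Markers of other cell types moved with the muscle genes, and their part in the results was not tested. The counts below stand beside 37.1% of all tested genes called higher and 37.1% called lower. Satellite cell markers rose in 5 of 5 tested cases, with 199 to 204 FPKM summed in spheroids and 123 to 127 FPKM in monolayers. Vcam1 and Sdc4 held most of both sums, at 90.8 and 63.6 FPKM in spheroids and 65.1 and 55.3 FPKM in monolayers. Their log2 fold changes were only 0.45 ± 0.03 and 0.17 ± 0.03. Cdh15 and Heyl had the largest rises of the satellite cell markers, at 4.01 ± 0.12 and 3.61 ± 0.07. Of the untested ones Pax7 had 9 reads in spheroids and 1 in monolayers, Myf5 14 in spheroids and 1 in monolayers, Fgfr4 11 in spheroids and 0 in monolayers, Chrdl2 19 in spheroids and 15 in monolayers, and Calcr 1 in each format. Endothelial markers rose in 8 of 8 cases, at 108 to 112 FPKM in spheroids and 19.4 to 20.9 FPKM in monolayers, with Cldn5 at 4.83 ± 0.29 and Tie1 at 3.44 ± 0.09. Cldn5 had 9 monolayer reads in all and needed its spheroid counts to pass the filter. Macrophage markers, led by Cd68 at 3.16 ± 0.11 and Fcer1g at 2.79 ± 0.23, rose in 7 of 8 cases with Csf1r not passing (edgeR adjusted p = 0.052), at 128 to 135 FPKM in spheroids and 24.3 to 26.0 FPKM in monolayers, and Schwann cell markers, led by Erbb3 at 3.24 ± 0.09 and Sox10 at 2.65 ± 0.08, rose in 7 of 7 tested cases, at 61.8 to 62.7 FPKM in spheroids and 12.2 to 13.2 FPKM in monolayers. No gene of these 4 lists was at 0 in all 6 libraries. Periosteal and skeletal markers had 7 of 12 higher and 4 lower, with a median of 0.21, from Ctsk at 1.98 ± 0.03 and Pdgfra at 1.55 ± 0.03 to Col1a2 at -1.01 ± 0.03 and Col1a1 at -1.14 ± 0.03. Alpl did not pass.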

How the data were processed

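Total RNA was sequenced by DNBSEQ, per the labels' protocols. The submitters' processing notes name HISAT and GRCm38.p6. Not given in the sources used here: strand setting, annotation, counting tool and HISAT version. The deposited values are expected counts, which may carry decimals, and FPKM, per the file headers. In a library 28.9% to 30.6% of count values had decimals.

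Libraries were grouped by title. Counts were rounded to whole numbers, filtered with filterByExpr at a minimum count of 10, and tested with edgeR 4.0.16 (R 4.3.3; TMM factors from 0.985 to 1.02, robust quasi-likelihood fits, Benjamini-Hochberg adjustment over all 13708 tested genes, threshold 0.05). Each SE is the log2 fold change divided by the square root of its F statistic. Counting intervals (exact, 95%) cover counting error only, and floors leave out the counting error of the higher group. Alternatives used DESeq2 1.42.0, limma 3.58.1 and other settings. The scripts were tested on simulated data. Replicate pairs had mean chi-square ratios from 1.90 to 2.91 over genes with at least 40 reads, where counting noise gives 1, so each library was counted once.

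The members and all lists, roles and tests were chosen with earlier results of these data known. Described singly are, per role, the 3 members with the highest and the 1 with the lowest mean spheroid FPKM and all not higher in spheroids or at 0 reads in a group, and, per other list, the top 2 risers and top 2 fallers past the threshold at 1 CPM or more in the higher group. Further genes were named after their values were seen. A gene that this rule names is not reported here. Adss1 and Myl7 were not matched. Coordinates and promoters are from RefSeq GRCm38.p6; exons of 19 members overlap an exon of another gene on the opposite strand (GENCODE M21), for 5 of them a gene in the tables.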

Additional observations from a re-analysis of the deposited data

How the results depend on the processing

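Over 12 alternative settings (DESeq2 size factors, no filter, DESeq2, limma on log2(FPKM + 1) and log2(FPKM + 0.1), a replicate block, and each library left out), all 570 fitted member values kept their direction and call. Members called higher numbered 44 to 47, with 44 on both limma scales, where 45 members are tested. Their median was 3.50 with limma on log2(FPKM + 1), a scale that understates low genes, and 4.19 to 4.33 with a library left out. On that scale, and on log2(FPKM + 0.1), the medians were 1.96 and 3.56 for other sarcomere genes, 1.73 and 2.77 for other excitation-contraction genes, 1.62 and 2.20 for muscle energy genes, and 0.91 and 1.12 for dystrophin complex genes. The excitation-contraction median was 2.63 without a filter, 2.71 with DESeq2 and 2.83 to 3.09 with a library left out, and the energy median 2.19 to 2.59 with a library left out. Of 1140 values over 96 genes 1120 kept their call, 16 lost it and 4 gained it. Dysf, with an adjusted p of 0.0478, lost it in 8 settings (adjusted p 0.0527 to 0.179: DESeq2 size factors, DESeq2, both limma scales, and without spheroid replicate 1 or 3 or monolayer replicate 1 or 2). Csf1r gained it in 4 (adjusted p 0.0246 to 0.0497: DESeq2 size factors, both limma scales, and without spheroid replicate 1). Pax3 lost it in 8 (log2 fold change -0.18, adjusted p = 0.0385; 0.0528 to 0.206 where lost, with DESeq2, both limma scales, and without any one of spheroid replicates 1 to 3 or monolayer replicates 2 and 3). Libraries of equal replicate number had correlations of deviations of -0.0490, 0.0713 and 0.0601, and those of unequal number ranged from -0.126 to 0.0628. These values cannot decide whether libraries of equal number shared a culture or animal. With the replicate block 5120 genes were called higher and 5118 lower, against 5082 and 5091 without it, and no call of a listed gene changed.

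With CPM in place of FPKM, which ignores length, the spheroid share of Myh8 among heavy chains was 21.8%, of Tnnt3 in troponin T 43.9% and of Tnni2 in troponin I 18.0%. In windows of 100 bases, CANNTG stood in 56.5% and CAGCTG in 28.3% of member promoters, against 34.4% and 5.81% of all promoters. Without a filter on low counts 3 cardiac and 8 satellite cell markers were called higher, and with DESeq2 3 cardiac ones, against 1 and 5. Depth limits Myl3, Mybpc2, Myoz1, Ckm, Trim63, Myl2, Trdn, Myoz2, Fbxo40 and Myh2, which have 3 to 26 monolayer reads. The log2 fold change of Myl2 ran from 3.65 to 4.49 with a monolayer library left out.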
